A study of Homo sapiens with 20 samples.

Results

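The BCL2 family controls the point at which a stressed cell releases cytochrome c from its mitochondria. The genes described here are 5 of its prosurvival members, BCL2, BCL2L1 (BCL-XL), BCL2L2 (BCL-W), MCL1 and BCL2A1 (BFL-1). Its 3 effector members, BAX, BAK1 and BOK, are described with them. They were chosen by gene symbol, and all 8 were found among the 28051 named genes of the RNAseq data. In the ATACseq data, 5 of 8286 regions named a member among their genes.

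Prosurvival proteins sit largely on the mitochondrial outer membrane, where they hold BAX and BAK in check and bind the BH3-only proteins that relay death signals. When this restraint is exceeded, BAX and BAK assemble into pores, cytochrome c enters the cytosol and caspases are activated. Neutrophils are short-lived cells, and they are known to rely on MCL1 and BCL2A1 while BCL2 is lost as they mature.

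HL60 is a human acute myeloid leukemia line of promyelocyte type that matures towards neutrophils under all-trans retinoic acid (ATRA). The study asked how loss of hexokinase 3 (HK3), an enzyme of glycolysis found mainly in myeloid cells, affects these cells, and compared HK3-null HL60 cells with Cas9-expressing control HL60 cells. Cells of either genotype received 1 µM ATRA or 0.01% DMSO for 36 h. The 4 groups are therefore Cas9 control in DMSO, Cas9 control in ATRA, HK3-null in DMSO and HK3-null in ATRA, with 3 RNAseq and 2 ATACseq replicates in each. Per the study's methods, knockout lines were made with a lentiviral Cas9 and puromycin vector and grown from single cells by limiting dilution. The titles give every HK3-null library a single knockout name, so a difference between genotypes and a difference between 2 cell lines cannot be told apart, and p-values cover only the spread between these libraries.

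The 12 RNAseq libraries had an estimated depth of 22700000 to 37000000 counts, with no clear estimate for HK3-null ATRA replicate 2. RNA of the targeted gene was not reduced where the label says HK3-null. HK3 stood at 90, 65 and 105 normalized counts in Cas9 control DMSO and at 344, 302 and 346 in HK3-null DMSO (adjusted p = 1.11e-05), and the difference in ATRA did not pass the test (adjusted p = 0.836). RNA level alone does not show whether a frameshift removed the protein. The study checked its knockout clones by DNA sequencing and by mass spectrometry. It reports no HK3 spectra in pooled HL60 HK3 knockout clones after vitamin D3, where control cells had them. Cas9 control DMSO replicate 1 stood apart, with 16750 genes above 0, where the other 11 had between 15031 and 15801. All 10 promyelocyte markers were present, with a summed 582010 to 868651 normalized counts over the 12 libraries. MPO alone had 440811 to 661371, so the sum hides changes of other markers. At an adjusted p under 0.05, ATRA raised 2 and lowered 5 of the 10 in each genotype. Of all genes, 20.3% rose and 21.3% fell in Cas9 control, and 24% and 25.1% in HK3-null cells. In DMSO 5 markers were higher and 2 lower in HK3-null cells, beside 27.9% and 27.1% of all genes. Of 6 T cell and 5 B cell markers, CD3D, CD3G, CD2, LCK and MS4A1 were at or near 0, while the summed T cell list ranged from 11 to 19 in Cas9 control DMSO and from 163 to 190 in HK3-null DMSO. The B cell list summed to 49 to 61 and 148 to 177 in the same groups. A single gene carried most of each difference, namely TRAC with 9 to 14 against 154 to 184 counts and PAX5 with 0 to 2 against 92 to 119. The B cell marker CD79A was present in every library. It had 45 to 57 counts in Cas9 control DMSO and 49 to 60 in HK3-null DMSO. In ATRA it had 80 to 102 in Cas9 control and 84 to 102 in HK3-null cells. The erythroid list reached at most 13 counts and the epithelial list at most 80.

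Neutrophil maturation markers differed between the groups. Their 10 genes summed to 7688 to 8038 normalized counts in Cas9 control DMSO, 29221 to 31338 in Cas9 control ATRA, 21824 to 24354 in HK3-null DMSO and 125012 to 135081 in HK3-null ATRA. These sums moved with genotype as well as with ATRA, and their part in the results on the BCL2 family was not tested. In bulk RNA, fewer cells of a type and less RNA per cell cannot be told apart.

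ATRA lowered BCL2 and raised BCL2A1 in both genotypes, by far more than it moved any other member. Values below are normalized counts of each library, meaning read counts scaled for depth but not for gene length, in the order of replicates 1 to 3. Fold changes come from limma on the log2 values, with the standard error of the fit, and a gene passed at a Benjamini-Hochberg adjusted p under 0.05 over 13256 genes.

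BCL2, the founding prosurvival member and the target of venetoclax, had 1980, 1801 and 1989 counts in Cas9 control DMSO and 604, 646 and 639 in Cas9 control ATRA. In the HK3-null libraries it had 3101, 3214 and 3384 counts in DMSO and 492, 491 and 496 in ATRA. The libraries of each group did not overlap with those of any other group, and BCL2 was both highest and lowest in HK3-null cells. ATRA lowered it 3.05-fold in Cas9 control (log2 −1.61, SE 0.059, adjusted p = 3.37e-09) and 6.55-fold in HK3-null cells (log2 −2.71, adjusted p = 7.76e-11). The 2 falls differed from each other by a log2 of −1.10 (SE 0.083, interaction adjusted p = 1.53e-05).

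Read by genotype, BCL2 was 1.68-fold higher in HK3-null than in Cas9 control cells in DMSO (log2 0.75, adjusted p = 9.87e-07). In ATRA it was 1.28-fold lower (log2 −0.35, adjusted p = 0.000326). The sign of the genotype difference thus turned with treatment, and both differences passed.

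BCL2A1 encodes BFL-1, an NF-κB-induced prosurvival protein of maturing myeloid cells. It had 10 counts in each of the 3 Cas9 control DMSO libraries and 193, 155 and 169 in Cas9 control ATRA. In HK3-null cells it had 80, 69 and 73 counts in DMSO and 523, 549 and 559 in ATRA. No groups overlapped, and the untreated HK3-null libraries lay between the untreated and the ATRA-treated controls.

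The rise of BCL2A1 with ATRA was 17.2-fold in Cas9 control (log2 4.10, SE 0.13, adjusted p = 8.47e-10) and 7.36-fold in HK3-null cells (log2 2.88, adjusted p = 1.28e-08). The log2 rise was smaller in HK3-null cells by 1.22, with an interaction of −1.22 (SE 0.18, adjusted p = 0.00151), although the gain in counts was larger there. HK3-null cells had 7.39-fold more BCL2A1 in DMSO (adjusted p = 1.21e-08) and 3.17-fold more in ATRA (adjusted p = 7.24e-07). BCL2A1 lies on chromosome 15, where the median gene was lower in HK3-null cells by a log2 of −0.94 in DMSO and −0.97 in ATRA. With each chromosome's median subtracted, the BCL2A1 difference was a log2 of 3.83 in DMSO and 2.63 in ATRA.

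**Figure D1:**
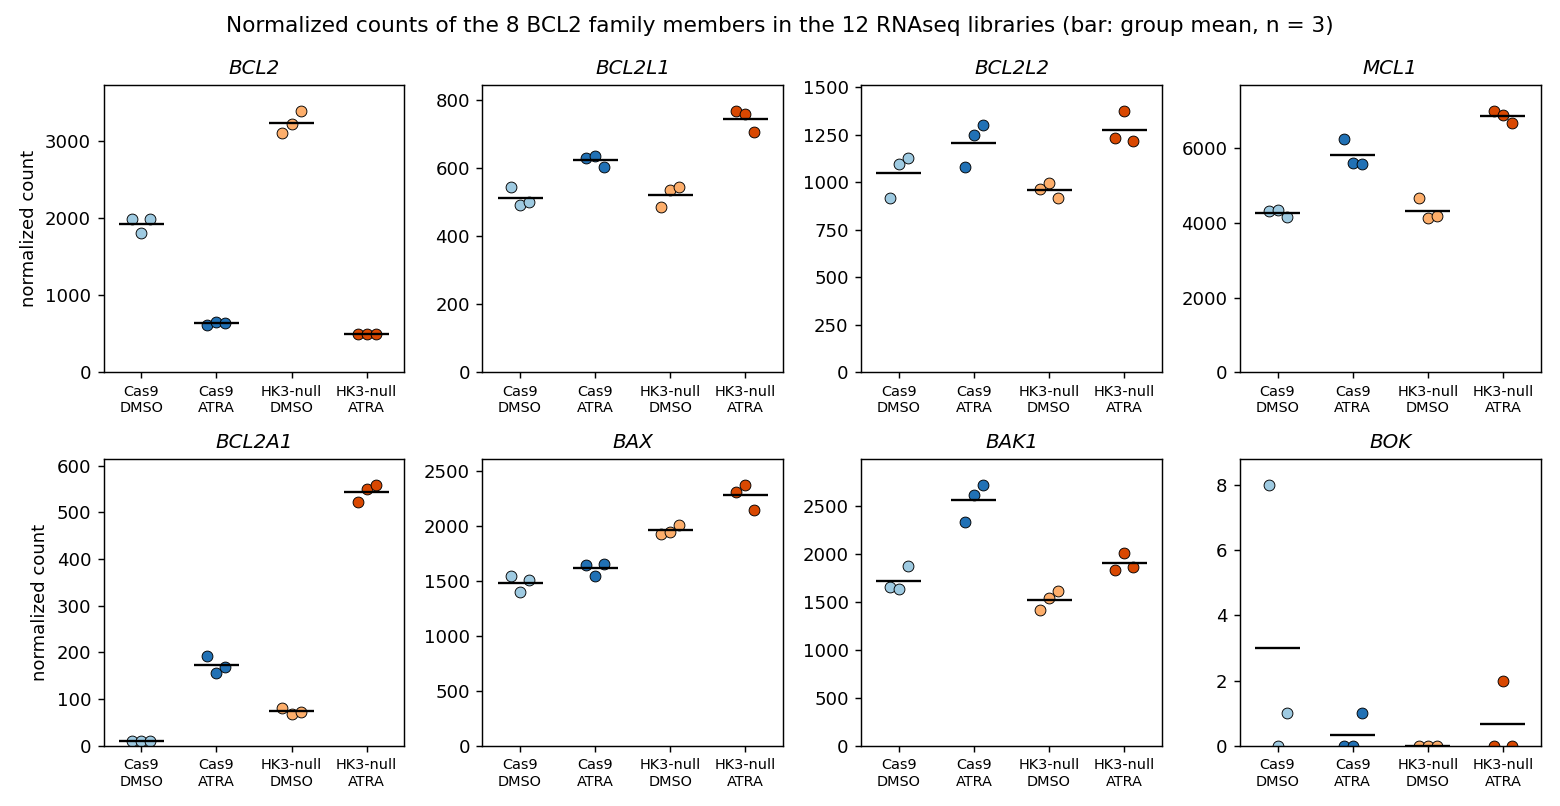
Normalized counts (y axis, from 0, a separate scale for each gene) of the 8 members in the 12 RNAseq libraries, by group on the x axis, with 1 point per library and a bar at the group mean. BCL2 lay between 3101 and 3384 in HK3-null DMSO and between 491 and 496 in HK3-null ATRA, BCL2A1 rose in both genotypes, and BOK stayed at or near 0.

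MCL1 is a short-lived prosurvival protein on which granulocytes depend. Its counts were 4321, 4336 and 4167 in Cas9 control DMSO and 6255, 5610 and 5572 in Cas9 control ATRA. HK3-null libraries had 4679, 4124 and 4194 counts in DMSO and 7005, 6900 and 6688 in ATRA. The DMSO groups overlapped, and every ATRA library of HK3-null cells lay above every ATRA library of the control.

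ATRA raised MCL1 1.36-fold in Cas9 control (log2 0.44, SE 0.060, adjusted p = 0.000149) and 1.59-fold in HK3-null cells (log2 0.67, adjusted p = 3.77e-06). In DMSO the genotypes differed by a log2 of 0.02 (95% interval −0.12 to 0.15, adjusted p = 0.826), a value that turned to −0.0041 with chromosome medians subtracted. MCL1 was 1.18-fold higher in HK3-null cells in ATRA (adjusted p = 0.00476). The difference between the 2 ATRA effects, a log2 of 0.22, did not pass without the replicate block (adjusted p = 0.144) and passed with replicate number as a block (adjusted p = 0.0193).

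BCL2L1 produces BCL-XL, and also the shorter, death-promoting BCL-XS by alternative splicing, which a gene-level count does not separate. It had 544, 490 and 501 counts in Cas9 control DMSO and 630, 635 and 602 in Cas9 control ATRA. In HK3-null cells the counts were 486, 534 and 544 in DMSO and 767, 759 and 704 in ATRA. ATRA libraries lay above DMSO libraries in both genotypes, and the DMSO groups overlapped.

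The rise of BCL2L1 was 1.22-fold in Cas9 control (log2 0.28, SE 0.073, adjusted p = 0.00879) and 1.43-fold in HK3-null cells (log2 0.51, adjusted p = 0.000129). In DMSO the genotypes differed by a log2 of 0.03 (95% interval −0.13 to 0.19, adjusted p = 0.776), which became −0.084 under quantile normalization. In ATRA, BCL2L1 was 1.19-fold higher in HK3-null cells (adjusted p = 0.0101), and the interaction did not pass (adjusted p = 0.225).

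BCL2L2 encodes BCL-W, a prosurvival protein best known for its role in the testis. It had 918, 1094 and 1128 counts in Cas9 control DMSO and 1080, 1246 and 1298 in Cas9 control ATRA, and these groups overlapped. HK3-null cells had 964, 997 and 915 counts in DMSO and 1231, 1374 and 1215 in ATRA, with no overlap. ATRA raised it 1.33-fold in HK3-null cells (log2 0.41, SE 0.095, adjusted p = 0.00396). In Cas9 control the value was a log2 of 0.21, which did not pass (adjusted p = 0.102) but passed with the replicate block (adjusted p = 0.0305) and without Cas9 control ATRA replicate 1 (log2 0.29, adjusted p = 0.0359). Genotype differences of −0.12 in DMSO (95% interval −0.33 to 0.09) and 0.08 in ATRA (95% interval −0.13 to 0.29) did not pass. The read-through gene BCL2L2-PABPN1, which shares sequence with it, was listed at 2 to 12 counts.

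Among the effectors, BAX followed genotype more than treatment. BAX is held in the cytosol and moves to mitochondria on activation. It had 1541, 1398 and 1511 counts in Cas9 control DMSO and 1647, 1546 and 1657 in Cas9 control ATRA. HK3-null cells had 1924, 1945 and 2012 counts in DMSO and 2312, 2374 and 2147 in ATRA, so that every HK3-null library lay above every control library.

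BAX was 1.32-fold higher in HK3-null cells in DMSO (log2 0.40, SE 0.058, adjusted p = 0.000121) and 1.41-fold higher in ATRA (log2 0.49, adjusted p = 2.1e-05). ATRA raised it 1.16-fold in HK3-null cells (adjusted p = 0.00945). In Cas9 control the ATRA value was a log2 of 0.12 (95% interval −0.0031 to 0.25, adjusted p = 0.109), and the 2 ATRA effects were not shown to differ (interaction adjusted p = 0.593).

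BAK1 encodes BAK, the effector that resides on mitochondria and is restrained mainly by MCL1 and BCL-XL. It had 1658, 1634 and 1880 counts in Cas9 control DMSO and 2337, 2619 and 2724 in Cas9 control ATRA. HK3-null libraries had 1416, 1543 and 1617 counts in DMSO and 1835, 2016 and 1865 in ATRA. The groups of the 2 genotypes did not overlap under either treatment, with HK3-null cells lower.

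ATRA raised BAK1 1.49-fold in Cas9 control (log2 0.57, SE 0.080, adjusted p = 0.000176) and 1.25-fold in HK3-null cells (log2 0.32, adjusted p = 0.00578). In ATRA it was 1.34-fold lower in HK3-null cells (log2 −0.42, adjusted p = 0.000753). The DMSO difference of −0.18 did not pass (adjusted p = 0.0824) and passed with the replicate block (adjusted p = 0.0163). BAK1 lies on chromosome 6, whose median gene was higher in HK3-null cells by a log2 of 0.52 in DMSO and 0.57 in ATRA. With chromosome medians subtracted, the BAK1 difference was −0.70 in DMSO (adjusted p = 3.06e-05) and −0.99 in ATRA. The interaction of −0.25 did not pass without the block (adjusted p = 0.23) and passed with it (adjusted p = 0.0457).

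BOK, an effector that can act without BAX and BAK, was close to absent. It was listed at 8, 0 and 1 counts in Cas9 control DMSO, 0, 0 and 1 in Cas9 control ATRA, 0 in all 3 HK3-null DMSO libraries and 0, 2 and 0 in HK3-null ATRA. The count of 8 came from Cas9 control DMSO replicate 1, the library with the most genes above 0. Every other library was below the limit of 3 counts that a count of 0 allows. No group mean of the BOK log2 values was above 3, so BOK was left out of the tests and no fold is given.

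**Figure D2:**
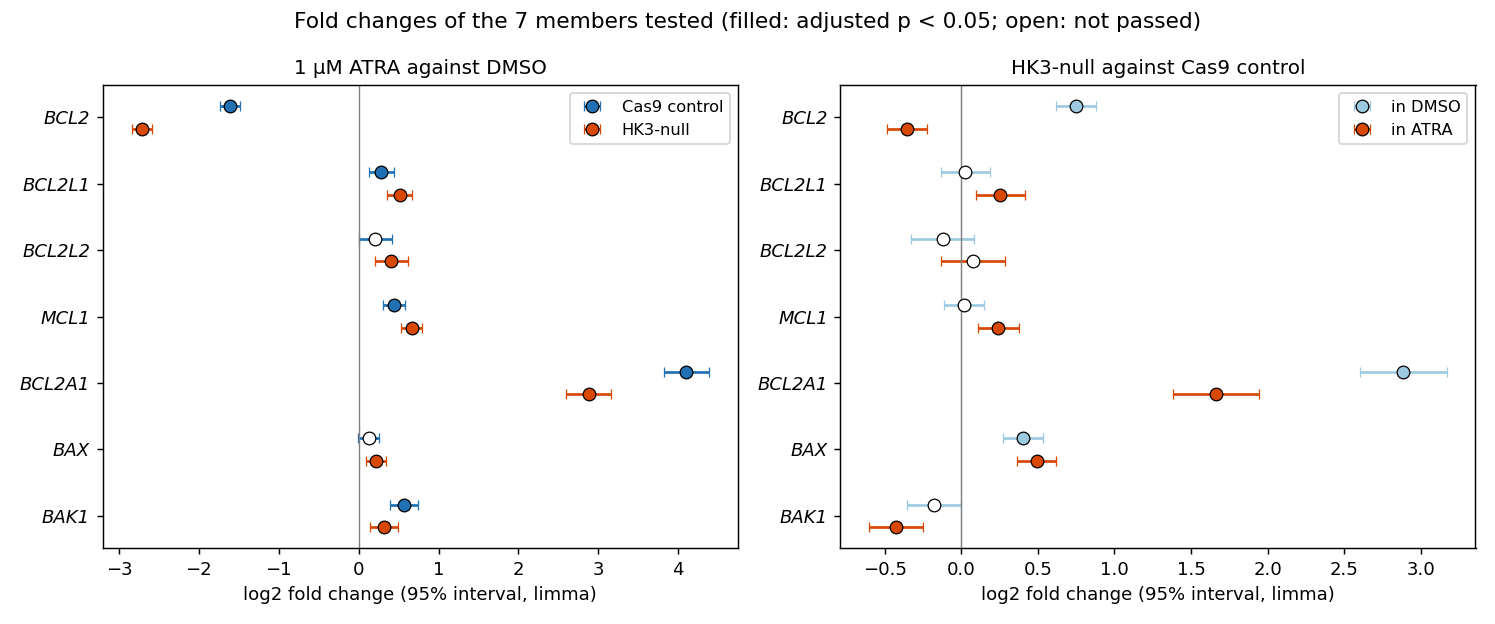
Log2 fold changes (x axis) of the 7 members tested, with 95% intervals from limma, for ATRA against DMSO in each genotype (left) and for HK3-null against Cas9 control under each treatment (right). Filled points passed at an adjusted p under 0.05. BCL2 lies left of 0 in both ATRA comparisons and changes side between the 2 genotype comparisons, and BCL2A1 lies furthest to the right in all 4.

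Counted over the 7 members tested, ATRA raised 4 and lowered 1 in Cas9 control, beside 20.3% of all genes tested that rose and 21.3% that fell. In HK3-null cells ATRA raised 6 and lowered 1, beside 24% and 25.1% of all genes. HK3-null cells in DMSO had 3 members higher and 0 lower than the control, beside 27.9% and 27.1%. The same comparison in ATRA had 4 higher and 2 lower, beside 29.6% and 29.5%. The comparisons share libraries, so these counts are not independent of each other. The 5 prosurvival members had a median log2 change with ATRA of 0.28 in Cas9 control and 0.51 in HK3-null cells, beside a median over all genes of 0.00 and 0.014.

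For the interaction, no member was more positive in HK3-null cells and 2 were more negative, beside 4.48% and 4.64% of all genes. Of all genes passing the interaction, 49.1% were more positive in HK3-null cells, and 38.1% under quantile normalization. With the replicate block 4 of the 7 members passed, namely BCL2, BCL2A1, MCL1 and BAK1, beside 21.9% of all genes in that fit.

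Levels can be set against each other between genes only per length, here as normalized counts per kilobase of the canonical GENCODE transcript. On this scale MCL1 was the most abundant prosurvival transcript in every library, with 1082 ± 23.7 (SD, n = 3) in Cas9 control DMSO and 1738 ± 40.9 in HK3-null ATRA. The order below it changed with the group. In Cas9 control DMSO, BCL2L2 at 296.8 ± 32 and BCL2 at 279.5 ± 15.4 overlapped, followed by BCL2L1 at 198.8 ± 11.1 and BCL2A1 at 12.8. In HK3-null DMSO, BCL2 was second at 469.8 ± 20.7, without overlap with BCL2L2 at 271.9 ± 11.7.

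Under ATRA, BCL2 moved to the bottom of this order in both genotypes. It stood at 91.5 ± 3.3 per kilobase in Cas9 control ATRA, where BCL2L1 at 241.8 ± 6.9 and BCL2A1 at 220.9 ± 24.6 overlapped. In HK3-null ATRA, BCL2 stood at 71.7 ± 0.38 and BCL2A1 was second to MCL1 at 697 ± 23.8, without overlap with BCL2L2 at 361.1 ± 24.8.

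As a share of the summed prosurvival counts per kilobase, MCL1 held 49.96% to 64.1% in the 12 libraries. BCL2 held 14% to 15.5% in Cas9 control DMSO and 20.5% to 23.2% in HK3-null DMSO. It fell to between 3.55% and 4.06% in Cas9 control ATRA and between 2.23% and 2.33% in HK3-null ATRA. BCL2A1 went the other way, from 0.685% to 0.687% in Cas9 control DMSO up to 21.2% to 23.1% in HK3-null ATRA.

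**Figure D3:**
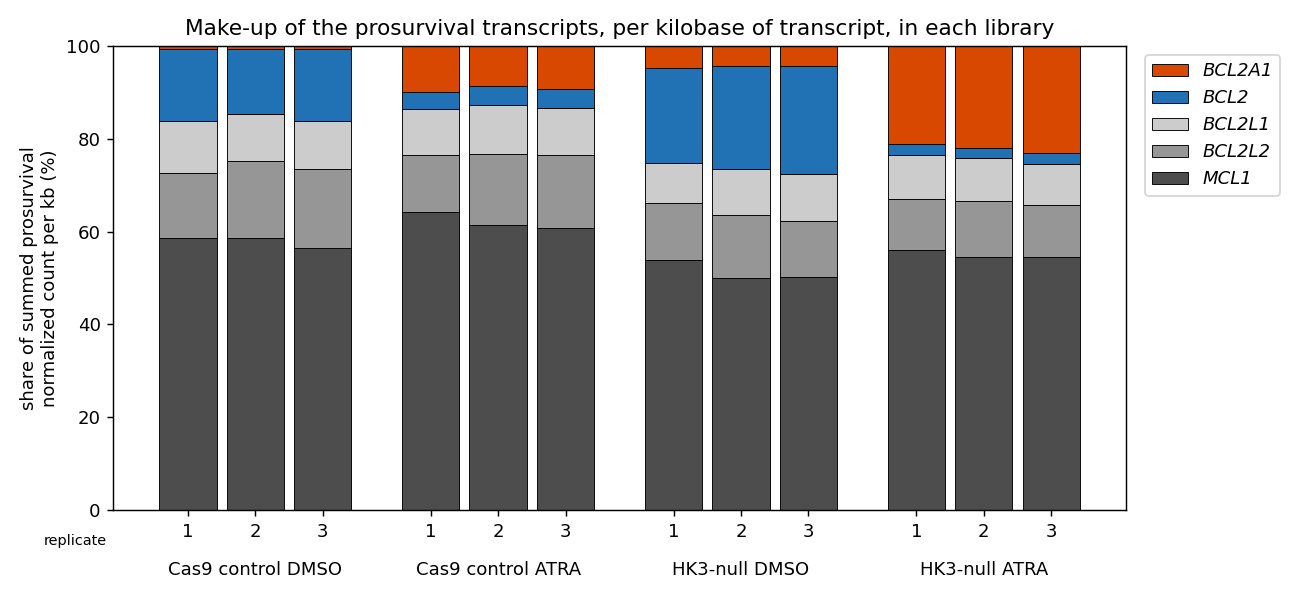
Share of each prosurvival gene in the summed prosurvival normalized count per kilobase (y axis, percent) in each of the 12 libraries, grouped by genotype and treatment on the x axis. MCL1 fills the largest block in every bar, the BCL2 block is widest in HK3-null DMSO, and the BCL2A1 block is widest in HK3-null ATRA.

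The summed effector transcripts per kilobase exceeded the summed prosurvival transcripts in all 12 libraries. The ratio of prosurvival to effector was 0.69, 0.746 and 0.676 in Cas9 control DMSO and 0.716, 0.662 and 0.647 in HK3-null DMSO, and these overlapped. It was 0.784, 0.734 and 0.695 in Cas9 control ATRA and 0.843, 0.819 and 0.871 in HK3-null ATRA, the only group whose 3 libraries lay above all others. BAX supplied 61.7% to 71.7% of the effector sum in Cas9 control libraries and 75.9% to 78.8% in HK3-null libraries. The lengths used are 780 bases for BCL2A1, 795 for BAX, 2170 for BAK1, 2574 for BCL2L1, 3526 for BCL2L2, 3950 for MCL1 and 6881 for BCL2, and another choice of transcript would move these shares. Transcript ratios say nothing of the proteins' ratio.

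For the 2 members that changed at least 2-fold, the genes with the most similar profile over the 12 libraries were identified among 10665 genes. Likeness was measured as the root mean square difference of the centred log2 counts. FUT7, a fucosyltransferase that builds selectin ligands, was most like BCL2 at 0.26, against a spread of BCL2 itself of 1.12. Its group means were 2271 in Cas9 control DMSO, 719.7 in Cas9 control ATRA, 2549 in HK3-null DMSO and 550.7 in HK3-null ATRA. ANO7 (0.276) and SERINC5 (0.284) came next.

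The profile of BCL2A1, with a spread of 2.06, was most like that of LRG1 (0.301), a secreted glycoprotein stored in neutrophil granules. LRG1 had group means of 280.7, 3208, 1414 and 8537 in the same order. LRRC25 (0.346) and RAB31 (0.349) followed.

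The 5 ATACseq regions that name a member lie mostly away from the gene starts. Positions are hg38, as deposited, and annotations are from GENCODE v44. The BCL2 region, chr18:63155387-63155841, lies in intron 2 of BCL2, 164.2 kb from its canonical start. The BCL2L1 region, chr20:31666567-31667074, lies in intron 2 of BCL2L1, 56 kb from the start.

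The BAK1 region, chr6:33578625-33579140, lies in intron 1 of BAK1, 1.4 kb from the start, and its deposited gene list also names LINC00336. It lies within the pseudogene GGNBP1 on the other strand as well. The BCL2A1 region, chr15:79978913-79979387, lies 8 kb upstream of the start of BCL2A1 and within no annotated gene. The BAX region, chr19:48967272-48968305, lies 12.9 kb from the start of BAX and beyond its end, overlaps the last exon of GYS1 with its 3′ untranslated part, and names FTL and GYS1 as well. No deposited region named MCL1, BCL2L2 or BOK.

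The central 200 bases of 3 of these regions are shown for the 2 members whose RNA changed most and for the region nearest to a gene start. They are read from hg38 on the plus strand, at chr18:63155514-63155713, chr15:79979050-79979249 and chr6:33578782-33578981. Capitals mark GGAA or its reverse complement TTCC, the core letters bound by ETS factors such as PU.1, the master regulator of myeloid cells.
BCL2 region: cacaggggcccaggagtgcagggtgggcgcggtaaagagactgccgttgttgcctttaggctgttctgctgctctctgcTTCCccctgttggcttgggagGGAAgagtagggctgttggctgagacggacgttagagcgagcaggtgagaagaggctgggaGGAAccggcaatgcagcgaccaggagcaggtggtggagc
BCL2A1 region: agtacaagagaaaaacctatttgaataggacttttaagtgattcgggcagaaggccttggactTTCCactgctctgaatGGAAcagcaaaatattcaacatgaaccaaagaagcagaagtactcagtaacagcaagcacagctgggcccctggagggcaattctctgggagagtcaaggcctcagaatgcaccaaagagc
BAK1 region: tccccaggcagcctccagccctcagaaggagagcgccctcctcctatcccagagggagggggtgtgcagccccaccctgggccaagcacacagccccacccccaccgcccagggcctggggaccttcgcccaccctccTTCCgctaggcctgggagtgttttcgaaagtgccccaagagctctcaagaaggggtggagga

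The BCL2 window held 3 matches to GGAA, the BCL2A1 window 2 and the BAK1 window 1, letters found in 92.7% of the windows of all 8286 regions. On both strands, none of the 5 members' windows matched the PU.1 letters GAGGAAGT, which contain GGAA and occur in 7.05% of all windows. The letters searched for retinoid receptors (AGGTCA, 12.3% of windows), C/EBP (TTGCNNAA, 13.8%), AP-1 (TGANTCA, 14.5%) and RUNX (TGTGGT, 24.1%) were also not matched. The absence of these letters says only that they are not in these windows. The BAK1 window was richest in G and C at 67.5%, and the BCL2A1 window was poorest at 46%.

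Signal in 4 of the 5 regions was lower in HK3-null than in Cas9 control cells, and in the BAX region it was higher. All deposited regions had been selected on a difference of at least 1.5-fold between genotypes in ATRA, so values of the ATRA libraries are descriptions. The genotype difference in DMSO was tested with limma on log2(signal + 1) over 6214 regions, of which 42.7% were higher and 43.9% lower in HK3-null cells. Of the members' regions, 1 was higher and 4 were lower. Most deposited regions thus differed between genotypes in DMSO too, and the members' regions did not stand apart in that.

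The BCL2 region had a signal of 36.5 and 61.5 in the 2 Cas9 control DMSO libraries and of 9 and 11.9 in HK3-null DMSO. In ATRA it had 48.2 and 21.3 in Cas9 control and 10.5 and 7.8 in HK3-null cells. All HK3-null libraries lay below all control libraries, and the DMSO difference was 4.27-fold (log2 −2.09, SE 0.41, adjusted p = 2.68e-05). The median of 136 tested regions on chromosome 18 was a log2 of 0.56 higher in HK3-null cells in DMSO. BCL2 RNA was higher in HK3-null cells in DMSO and lower in ATRA, while this intronic region was lower in both.

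The BCL2L1 region had 84.7 and 80.6 in Cas9 control DMSO, 51.1 and 45.6 in Cas9 control ATRA, 14.6 and 23.2 in HK3-null DMSO and 10.9 and 9.81 in HK3-null ATRA. It was 4.3-fold lower in HK3-null cells in DMSO (log2 −2.10, SE 0.34, adjusted p = 1.65e-06), where BCL2L1 RNA did not pass a difference. With ATRA the mean signal was 0.585 of the DMSO mean in Cas9 control and 0.547 in HK3-null cells, while the RNA rose. The median of 147 tested regions on chromosome 20 differed between genotypes in DMSO by a log2 of 0.0075.

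The BCL2A1 region had 91.8 and 67.5 in Cas9 control DMSO, 71.3 and 55.5 in Cas9 control ATRA, 24.4 and 30.8 in HK3-null DMSO and 13.7 and 33.5 in HK3-null ATRA. The DMSO difference was 2.8-fold lower in HK3-null cells (log2 −1.49, SE 0.35, adjusted p = 0.000271), and the RNA went the other way. The median of 456 tested regions on chromosome 15 was itself lower by a log2 of −1.53, close to the value of this region, beside 0.33 over all regions.

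The BAK1 region had 40.4 and 46.1 in Cas9 control DMSO, 118.8 and 94.9 in Cas9 control ATRA, 9.19 and 16.8 in HK3-null DMSO and 29.9 and 22.3 in HK3-null ATRA. It was the only member region whose mean signal at least doubled with ATRA, to 2.47 times the DMSO mean in Cas9 control and 2.01 times in HK3-null cells. Its DMSO difference was 3.28-fold lower in HK3-null cells (log2 −1.71, SE 0.34, adjusted p = 3.33e-05), while the median of 541 regions on chromosome 6 was a log2 of 1.06 higher. In these libraries both the signal and BAK1 RNA were higher with ATRA and lower in HK3-null cells, although the RNA difference in DMSO did not pass without the replicate block.

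The BAX region had 98.8 and 90.6 in Cas9 control DMSO, 116.2 and 75.7 in Cas9 control ATRA, 142.7 and 157.0 in HK3-null DMSO and 165.5 and 230.0 in HK3-null ATRA. It was 1.58-fold higher in HK3-null cells in DMSO (log2 0.66, SE 0.29, adjusted p = 0.0333). The call did not pass with the replicate block (adjusted p = 0.0556) or without any 1 of the 4 DMSO libraries (adjusted p = 0.089 without Cas9 control replicate 1, 0.151 without Cas9 control replicate 2, 0.104 without HK3-null replicate 1 and 0.185 without HK3-null replicate 2). The median of the 229 regions on chromosome 19 was a log2 of 0.89 higher.

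**Figure D4:**
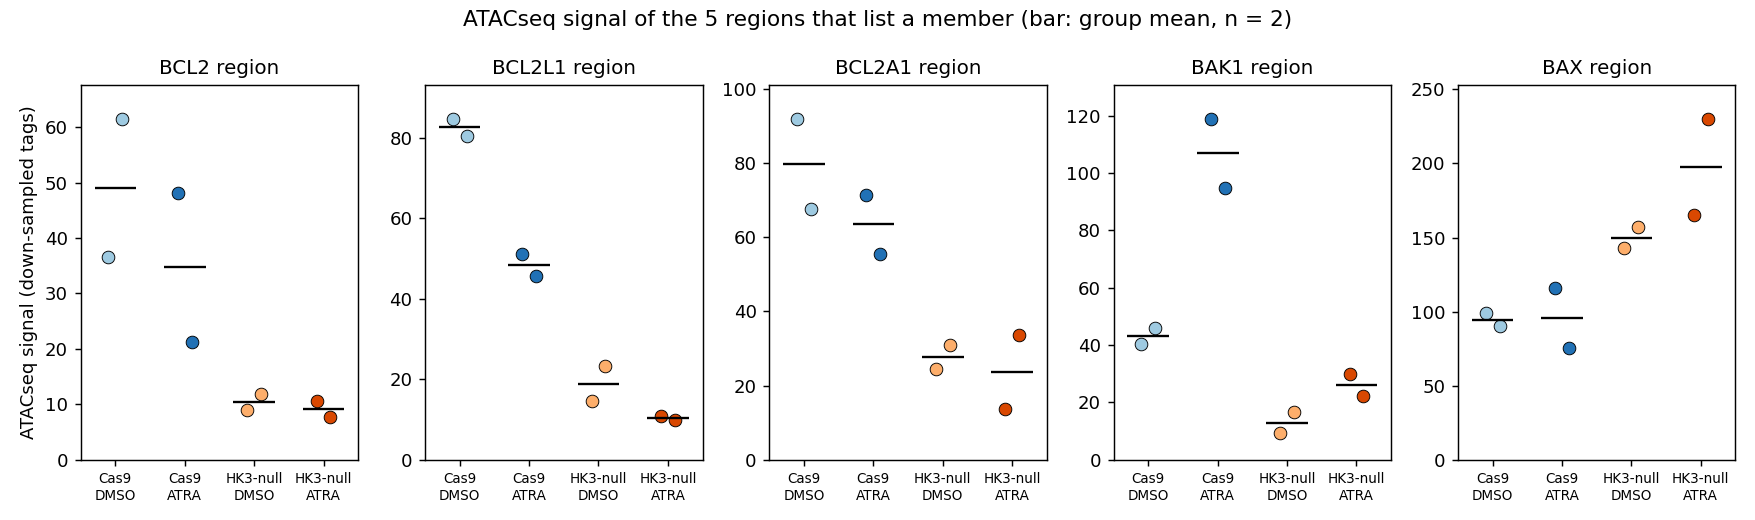
ATACseq signal (y axis, down-sampled tags, from 0, a separate scale for each region) of the 5 regions that name a member, with 1 point per library and a bar at the mean of 2. In the BCL2, BCL2L1, BCL2A1 and BAK1 panels all HK3-null points lie below the control points of the same treatment, and in the BAX panel they lie above.

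The BH3-only genes, which encode the proteins that bind the prosurvival members, changed in both directions. Of 8 genes 7 were tested, since HRK had at most 1 count. ATRA raised 1 and lowered 2 in Cas9 control, beside 20.3% and 21.3% of all genes. It raised 3 and lowered 2 in HK3-null cells, beside 24% and 25.1%. HK3-null cells had 1 higher and 2 lower in DMSO, beside 27.9% and 27.1%. Under the replicate block 6 passed this comparison, beside 66.7% of all genes in that fit. In ATRA 4 were higher and 2 lower, beside 29.6% and 29.5%. The list's median log2 difference between genotypes was −0.26 in DMSO and 0.63 in ATRA, beside 0.0026 and 0.0092 over all genes.

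PMAIP1 encodes NOXA, which binds MCL1 and BFL-1. It had 613, 518 and 443 counts in Cas9 control DMSO and 1715, 998 and 938 in Cas9 control ATRA. In HK3-null cells it had 509, 411 and 395 counts in DMSO and 3563, 2614 and 2356 in ATRA. ATRA libraries were the higher ones in both genotypes, and the rise was a log2 of 1.17 in Cas9 control (adjusted p = 0.00181) and 2.68 in HK3-null cells (adjusted p = 2.43e-06), with an interaction of 1.51 (adjusted p = 0.0137).

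BMF, a BH3-only protein tied to the cytoskeleton, changed sides with genotype. Its counts were 571, 684 and 539 in Cas9 control DMSO against 302, 387 and 384 in Cas9 control ATRA, and 468, 536 and 462 in HK3-null DMSO against 752, 948 and 862 in HK3-null ATRA. ATRA lowered it in Cas9 control (log2 −0.74, adjusted p = 0.000866) and raised it in HK3-null cells (log2 0.80, adjusted p = 0.000354), with an interaction of 1.55 (adjusted p = 0.000386).

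BBC3 encodes PUMA, which binds all prosurvival members. It had 16 to 46 counts in the 6 libraries of Cas9 control and 98 to 227 in those of HK3-null cells. The genotype difference was a log2 of 2.65 in DMSO (adjusted p = 0.000171) and 2.48 in ATRA (adjusted p = 0.00024), and ATRA effects did not pass in either genotype. BIK was the member of this list that fell most with ATRA in HK3-null cells (log2 −1.84, adjusted p = 0.000264), and its interaction of −1.45 was near the threshold (adjusted p = 0.0486).

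A list of mitochondrial death genes held caspases and their activators as well as outer membrane proteins, and more of its genes fell than rose with ATRA. Of 13 genes, 1 rose and 7 fell in Cas9 control, and 2 rose and 9 fell in HK3-null cells, with a median log2 of −0.37 and −0.34, beside the 21.3% and 25.1% of all genes that fell. The falls in both genotypes included VDAC1, VDAC2, VDAC3 and MTCH2, named after their values were seen, which encode outer membrane proteins that do not act downstream of BAX and BAK. Lower counts with ATRA were not confined to these genes. CYCS, which encodes cytochrome c, had 11733 to 13921 counts in Cas9 control DMSO and 7991 to 9805 in Cas9 control ATRA. In HK3-null cells CYCS had 8868 to 9277 counts in DMSO and 4517 to 6096 in ATRA. Group means in the same order were 1174, 739.7, 825 and 400 for ENDOG and 1111, 812, 1264 and 855 for HTRA2. These genes too were named after their values were seen. CASP9, the initiator caspase of this pathway, rose by a log2 of 1.66 in Cas9 control (adjusted p = 5.13e-07) and 1.44 in HK3-null cells (adjusted p = 9.54e-07). By genotype, 5 were higher and 6 lower in DMSO, beside 27.9% and 27.1% of all genes. In ATRA 4 were higher and 6 lower, beside 29.6% and 29.5%.

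VDAC1, the mitochondrial channel, was lower in HK3-null cells by a log2 of −1.51 in DMSO (adjusted p = 4.68e-08), on chromosome 5, whose median gene was at −0.75. APAF1, the scaffold that activates CASP9, was higher by a log2 of 1.21 (adjusted p = 0.00369). The interaction passed for AIFM1 (log2 −0.30, adjusted p = 0.0121), named after its value was seen. Under the replicate block the interaction passed for 4 genes of the list, beside 21.9% of all genes in that fit.

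Of the 6 other BCL2-like genes, BCL2L10 and BCL2L14 were at 0 in all libraries and 4 were tested. ATRA raised 1 and lowered 0 in each genotype. Of all genes, 20.3% rose and 21.3% fell in Cas9 control, and 24% and 25.1% in HK3-null cells. HK3-null cells had 2 higher and 0 lower in ATRA, beside 29.6% and 29.5% of all genes. In DMSO 1 was higher and 1 lower, beside 27.9% and 27.1%, with 1 passing under the replicate block, beside 66.7%. BCL2L15 was the lower gene, with 4 to 20 counts in HK3-null DMSO against 21 to 30 in Cas9 control DMSO (adjusted p = 0.0452). No gene of this list passed the interaction test by limma. Under the replicate block 2 passed it, beside 21.9% of all genes in that fit.

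The inhibitor of apoptosis genes include XIAP, which blocks caspases after cytochrome c release. Of 7 genes, 3 rose and 0 fell with ATRA in each genotype. Of all genes, 20.3% rose and 21.3% fell in Cas9 control, and 24% and 25.1% in HK3-null cells. By genotype, 2 were higher and 0 lower in HK3-null cells in DMSO, beside 27.9% and 27.1% of all genes. Under the replicate block 4 passed this comparison, beside 66.7% of all genes in that fit. In ATRA 2 were higher and 2 lower, beside 29.6% and 29.5%. BIRC7 was among the higher ones and was listed at 0 in all Cas9 control DMSO libraries, at 1, 0 and 1 counts in Cas9 control ATRA, at 2, 1 and 1 in HK3-null DMSO and at 17, 9 and 19 in HK3-null ATRA. Calls at counts this near 0 depend on the value written for 0. NAIP, another member of the list, had 40, 24 and 36 counts in Cas9 control ATRA and 15, 18 and 16 in HK3-null ATRA (adjusted p = 0.0361).

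Genes that govern MCL1 stability were described because MCL1 is set largely by protein turnover. Of 10 genes 9 were tested. ATRA raised 3 and lowered 1 in each genotype. Of all genes, 20.3% rose and 21.3% fell in Cas9 control, and 24% and 25.1% in HK3-null cells. HK3-null cells had 2 higher and 1 lower in DMSO, beside 27.9% and 27.1% of all genes. In ATRA 4 were higher and 1 lower, beside 29.6% and 29.5%. DUSP6, the phosphatase that switches ERK off, rose with ATRA by a log2 of 1.85 in Cas9 control (adjusted p = 3.77e-08) and 2.04 in HK3-null cells (adjusted p = 1.07e-08).

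USP13, a deubiquitinase that spares MCL1, fell with ATRA in both genotypes, by 0.62 on the log2 scale in Cas9 control (adjusted p = 0.000562) and by 1.12 in HK3-null cells (adjusted p = 3.95e-06). Its interaction of −0.50 did not pass (adjusted p = 0.0554) and passed with the replicate block (adjusted p = 0.00402). The kinase gene MAPK3 passed the interaction with a log2 of 0.43 (adjusted p = 0.0165). It was named after its value was seen. Under the replicate block 3 genes of the list passed the interaction, beside 21.9% of all genes in that fit.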

How the data were processed

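RNAseq libraries were paired-end and directional, and the reads were mapped to GRCh38 (aligner and counter not given in the sources used here). The authors deposited log2 values per gene. Raised to a power of 2 they gave whole numbers (100% within 0.1 percent), 0 being written as log2 of 0.001, so they were read as normalized counts. The methods speak of RPKM, but no length scaling was visible, and the submitters' notes name DESeq2 and MACS2. Normalized counts summed to 29056349 to 31549781 per library, and rows lacking a gene symbol made up no more than 0.00926%. In the ATACseq arm the authors used bwa mem and called peaks, which they merged into regions, and they deposited down-sampled tag signal per region, with no depth given.

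The deposited log2 values were fitted in R 4.3.3 with limma 3.58.1 (lmFit, eBayes with trend, 2-sided), with 4 group means over 12 libraries. The fit covered 13256 genes with a group mean log2 above 3 in at least 1 group. ATACseq signal was fitted as log2(signal + 1) over the 6214 regions whose mean signal exceeded 17.1, which is the 25th percentile. The code was tested on simulated data. Members, lists and tests were chosen with earlier results of these data known, and some genes of the lists are not reported here. Of other lists, at most 3 genes per contrast are named by largest change among those with adjusted p under 0.05 and at least 2-fold, and other named genes were chosen after their values were seen. Libraries of the same replicate number deviated together in all 18 pairs between groups (r 0.178 to 0.631 over 10667 genes). The 36 pairs of different number had r from −0.643 to 0.286. The numbers, taken from the labels, may thus pair the samples, but the reported fit holds no replicate term. A second fit with the replicate number as a block is given where it changed a call of a member. For the other lists it is given in some comparisons only.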

Additional observations from a re-analysis of the deposited data

Results flagged for a closer look

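The ATRA effect differed between genotypes, by the interaction term of the limma fit, for 2 of the 7 members tested. The difference of HK3-null minus Cas9 control was a log2 of −1.10 for BCL2 (adjusted p = 1.53e-05) and −1.22 for BCL2A1 (adjusted p = 0.00151), and both passed in each fit that left out a library.

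The same test was passed by HK3 itself (log2 −1.90, adjusted p = 0.00202), by the BH3-only genes PMAIP1 (1.51), BIK (−1.45) and BMF (1.55), and by AIFM1 (−0.30) and MAPK3 (0.43).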

How the results depend on the processing

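Alternatives were log2(normalized count + 1), no filter on low values, a mean of at least 50 normalized counts, quantile normalization, recomputed size factors, limma without the trend, the 2 groups alone, chromosome medians subtracted, the replicate block, and each library left out; for regions, log2(signal + 5) and no filter. Of 287 single-gene values of the members under settings that kept all libraries of the groups compared, 280 kept direction and side of the threshold, 5 newly passed and 2 turned sign: BCL2L1 in DMSO between genotypes (−0.084 under quantile normalization) and MCL1 in the same comparison (−0.0041 with chromosome medians subtracted). With a library left out, 414 of 420 held, and the values that turned sign ranged from −0.0048 to 0.076 for BCL2L1 and from −0.039 to 0.052 for MCL1 in DMSO, and from −0.00043 to 0.13 for BCL2L2 in ATRA between genotypes. None of these 3 differences passed the test in any setting.

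The replicate block raised the members passing the interaction from 2 to 4 and all genes passing it from 1209 to 2898. Beyond the calls given in the report it changed no other call of a member. Of the counts over the other lists, 188 of 205 stayed within 1.5 times, as did 280 of 300 with a library left out. Among them, a mean of at least 50 counts left 1 inhibitor of apoptosis gene in DMSO and 2 in ATRA between genotypes. Without any filter 1 BH3-only gene passed the interaction, and under quantile normalization 3 mitochondrial death genes did, against 1 in the reported fit. The MCL1 stability genes passing the interaction numbered 2 in place of 1 with log2(normalized count + 1) and with a mean of at least 50 counts. The number of other BCL2-like genes in DMSO between genotypes was 1 in most alternatives. With no library of the compared groups left out, mitochondrial death genes passing numbered 7 to 10 with ATRA in Cas9 control. They numbered 10 to 12 with ATRA in HK3-null cells and 10 to 13 between genotypes in DMSO. Between genotypes in ATRA, the MCL1 stability genes numbered 4 to 7 and the inhibitor of apoptosis genes 1 to 5. The cause of these shifts was not tested. Without Cas9 control DMSO replicate 1, members passing numbered 5, 7, 3, 6 and 2 in the order of the 4 comparisons and the interaction. Precision is limited by 3 RNAseq and 2 ATACseq replicates and by low counts of BCL2A1 in Cas9 control DMSO.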
